A study of Mus musculus with 8 samples.

Results

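Immediate early genes and other genes that neurons transcribe in response to activity were examined in mouse cerebral cortex carrying the L192P substitution in Ago2. The set was chosen by name and held 39 genes, and all 39 were found by symbol among the 55416 genes of the count table and were given an adjusted p. Poly(A) RNA from cortex was sequenced from mice heterozygous for the knock-in (AGO2_L192P/+, called L192P here) and from wild-type controls (WT), as 4 libraries per genotype numbered 1 to 4. According to the study's methods the allele was made by genome editing in embryos, and the line was kept on C57/Bl6 by crosses to wild-type animals, so that every L192P animal keeps a normal Ago2 allele in all cells. The labels used here give neither the age nor the sex of the animals and do not say that the libraries came from separate animals, so p-values measure the spread between these libraries. The comparison asked whether the activity-regulated genes differed between genotypes, over all 8 libraries and within the 4 pairs of same-numbered libraries.

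Immediate early genes are transcribed within minutes of a stimulus, without the need for new protein. In neurons, synaptic input and calcium entry activate kinases that act on CREB, which binds the cAMP response element (CRE), and on SRF with its partners, which bind the CArG box. The first genes induced encode transcription factors such as Fos, Egr1 and Npas4, phosphatases that switch the kinases off again, and proteins that act at synapses, such as Arc, Homer1 and Nptx2. In cortex their mRNA is short-lived and follows the recent experience and handling of an animal.

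Libraries held between 20396357 and 43575900 counts. Same-numbered libraries of the 2 genotypes deviated from their group means together, as described with the processing, and were therefore also compared as pairs. The replicate 1 libraries of both genotypes stood apart from the other 6: Xist was under 2 normalized counts in both and between 5185 and 7257 in the others, while Ddx3y, Kdm5d, Eif2s3y and Uty, genes of chromosome Y, were at 0 in the other 6. The calls among the members are therefore also counted without the replicate 1 pair. Marker lists were read from the same DESeq2 fits as the members, first with genotype as the only term and then with the replicate number as a block (the paired fit). Of 10 markers of cortical excitatory neurons the first fit called none (4 had an unadjusted p under 0.05) and the paired fit called 3 lower (Slc17a7, Neurod6 and Tbr1) and 1 higher (Rasgrf2), with 9 below 0 on the log2 scale. Their summed normalized counts ran from 47027 to 52287 in L192P and from 52493 to 54393 in WT, which did not overlap. Of 7 striatum markers the first fit called none (4 had an unadjusted p under 0.05) and the paired fit called 4 lower (Drd2, Adora2a, Ppp1r1b and Pde10a), all 7 were below 0 with a median of -0.21, and the sums were 23343 to 30165 in L192P and 29856 to 36440 in WT. Of 7 thalamus markers 2 (Calb2 and Gbx2) were called higher by the first fit, and all 7 were above 0 with a median of 0.78. Their sums of 4419 to 8049 in L192P did not overlap those of 3720 to 4246 in WT. Of 8 hypothalamus markers 2 (Avp and Oxt) were called higher, and 7 were above 0 with a median of 2.44. Only 6 of them were given an adjusted p. Their sums were 277 to 1373 against 171 to 300, and Pmch was at 0 in 3 libraries. Among 8 glucocorticoid response genes 1 was called lower by the first fit (Cdkn1a) and 2 by the paired fit (Cdkn1a and Tsc22d3). Of 10 hippocampus, 7 astrocyte, 7 oligodendrocyte, 8 microglia and 10 endothelial markers the first fit called 0, with 1, 0, 0, 2 and 1 at an unadjusted p under 0.05. The paired fit called 1 hippocampus marker lower (Wipf3) and 1 microglia and 1 endothelial marker higher (Cx3cr1 and Slco1a4). Without the replicate 1 pair the paired fit called 4 excitatory neuron, 4 striatum and 1 oligodendrocyte marker lower, and 3 microglia, 3 hypothalamus, 1 endothelial, 1 astrocyte, 1 hippocampus and 1 thalamus marker higher. The part of these differences in the results below was not tested, and in bulk tissue fewer cells of a type and less RNA per cell cannot be told apart.

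The 500 bases before the canonical start site were searched on both strands for letters that mark the routes named above. The full CRE, TGACGTCA, stood in 8 of 39 member promoters (20.5%) and in 2.03% of 18537 promoters of tested genes, and its shorter core TGACG, which lies inside every full CRE, in 26 members (66.7%) and 29.4% of all. A CArG box stood in 5 members (12.8%), namely Fos, Fosb, Egr2, Egr3 and Dusp5, and in 2.63% of all promoters. Sites outside these 500 bases, at other start sites or with other letters were not searched for. A member missing here, such as Egr1, may therefore still hold one. The EGR site GCGTGGGCG stood in 1 member, Maff (2.56%), and in 0.858% of all. As examples of both motifs in genes of different roles, 6 sites are shown, 1 per gene, with the motif in capitals and 10 bases on each side, read 5′ to 3′ on the gene's strand of GRCm39. A match is a description of the letters and not evidence that a factor is bound.
Fos, CArG box, chr12:85520345-85520374, plus strand: cacaggatgtCCATATTAGGacatctgcgt
Fosb, CArG box, chr7:19044223-19044252, minus strand: tggccgagctCCTTATATGGctaattgcgt
Egr2, CArG box, chr10:67373617-67373646, plus strand: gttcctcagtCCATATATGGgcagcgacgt
Egr3, CArG box, chr14:70314282-70314311, plus strand: ctttgtctgtCCATATATGGgcagctacgt
Dusp1, CRE, chr17:26727572-26727599, minus strand: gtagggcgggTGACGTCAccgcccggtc
Vgf, CRE, chr5:137059049-137059076, plus strand: gaatgaacatTGACGTCAatggggcggg
The CArG boxes of Egr2 and Egr3 shown above lie at positions -65 and -58 from the start site, and those of Fos and Fosb farther off, at -303 and -266. The CRE of Dusp1 starts at position -96 and that of Vgf at -71.

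Across the members, 29 of 39 had a log2 fold change below 0 (L192P against WT) and 10 above, and the median was -0.18, against 0.0019 over all 18627 genes tested. A median below 0 was not particular to the members. It was -0.13 for the 10 excitatory neuron markers and -0.21 for the 7 striatum markers, and 0.23 and 0.36 for the microglia and endothelial markers. Leaving out 1 library moved the members' median between -0.26 (without WT replicate 1) and -0.08 (without WT replicate 3), and without the replicate 1 pair it was -0.21. With genotype as the only term, DESeq2 called 1 member at an adjusted p under 0.05, Nptx2, which is 2.56% of the members beside 1.36% of all genes tested. The paired fit called 6 members (15.4%), of which 36 were given an adjusted p, beside 4.25% of all genes tested. Homer1, Vgf, Nptx2, Fosl2 and Egr3 were the 5 called lower, beside 2.43% of all genes tested that were called lower, and Jun was called higher. The quasi-likelihood test of edgeR called 0 members without the block, where 10 had an unadjusted p under 0.05 and 0.314% of all genes were called. With the block edgeR called 4 (Homer1, Fosl2, Vgf and Nptx2), beside 3.04% of all genes. Homer1 and Vgf were called lower by the paired DESeq2 fit whichever pair was left out. The paired calls of Egr3 and Jun were lost without pair 2, 3 or 4, that of Fosl2 without pair 1, 2 or 3, and that of Nptx2 without pair 1 or 3.

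Without the replicate 1 pair, 6 members were called by DESeq2 with genotype as the only term, beside 3.46% of all genes tested. Homer1, Dusp6, Dusp1, Egr1 and Ier5 were lower and Jun was higher. In the paired fit of those 6 libraries 12 members were called (30.8%), beside 4.13% of all genes tested. Of these, 11 were called lower, beside 2.48% of all genes tested: Egr1, Egr3, Egr4, Junb, Arc, Nr4a1, Dusp1, Dusp6, Ier5, Homer1 and Vgf. Jun was again the only member called higher. That paired fit rests on 3 pairs, and edgeR with the block gave larger adjusted p for Egr1, Nr4a1 and Arc. With so few pairs the smallest DESeq2 adjusted p are not to be read as exact. On these 6 libraries edgeR called 2 members (Egr1 and Dusp6) without the block, beside 1.43% of all genes, and 16 with it, beside 5.06%. The 16 comprised those 12 members and Fos, Fosb and Nptx2, called lower, and Klf4, called higher. In both panels of the plot of fold changes with and without the replicate 1 pair, most members lie to the left of 0.

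**Figure D1:**
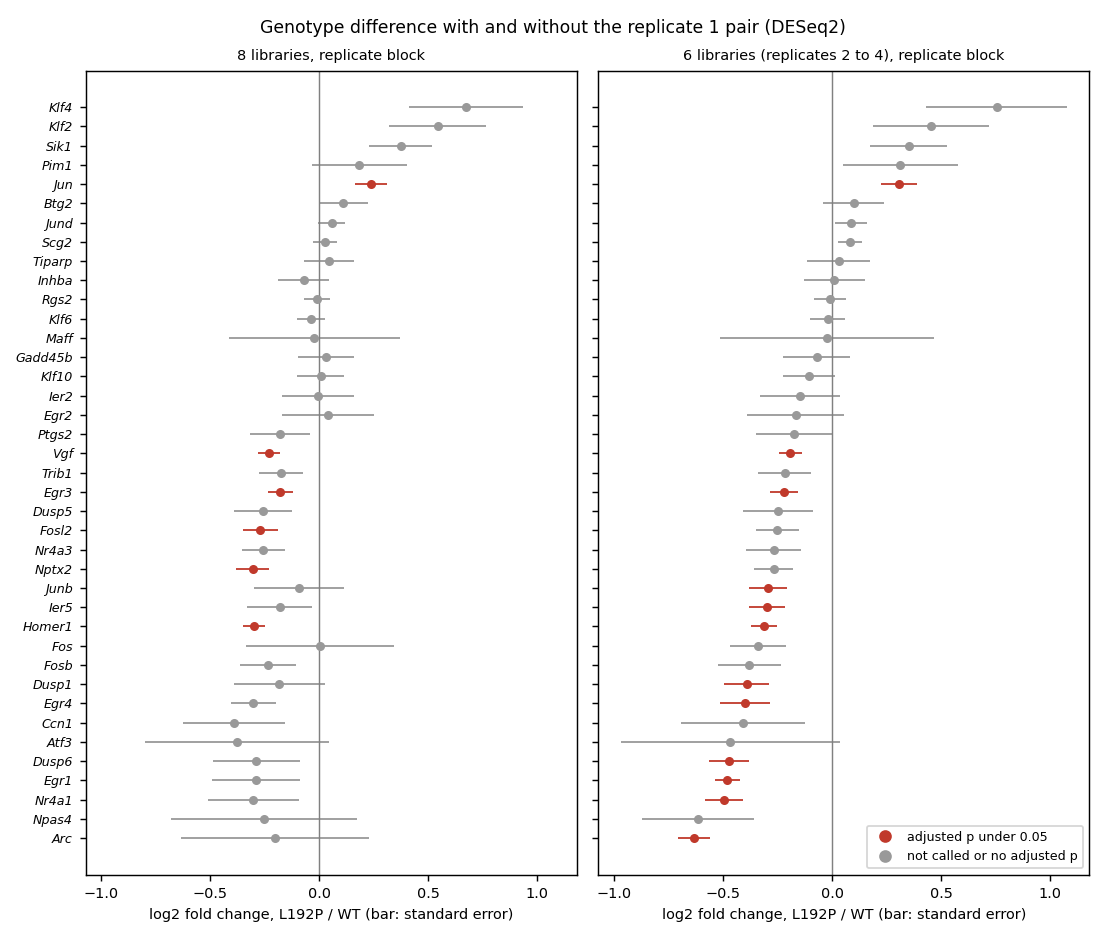
Log2 fold change of each of the 39 members (L192P against WT, DESeq2 with the replicate block) from all 8 libraries (left) and from the 6 libraries of replicates 2 to 4 (right), with bars of 1 standard error. Red points passed an adjusted p under 0.05, 6 on the left and 12 on the right. Arc moved from -0.21 on the left to -0.63 on the right, with a shorter bar.

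The AP-1 and related basic leucine zipper factors form dimers that bind the promoters and enhancers of later-induced genes. Of the 8 members 6 had a log2 fold change below 0. Fos, the prototype immediate early gene, had 384.0, 390.3, 628.4 and 346.2 normalized counts in L192P replicates 1 to 4 and 183.9, 511.8, 819.1 and 405.1 in WT. The groups overlapped, and the WT libraries held both the lowest and the highest value. For Fos the log2 fold change was -0.13 (standard error, SE, 0.46, DESeq2 adjusted p = 0.985), and it was 0.0029 in the paired fit (adjusted p = 0.999) and -0.34 in the paired fit without the replicate 1 pair (adjusted p = 0.131). Within pairs Fos was 2.09-fold higher in L192P in pair 1 and lower in pairs 2, 3 and 4, by log2 ratios of -0.39, -0.38 and -0.23.

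Fosl2, which encodes an AP-1 partner of the Jun proteins, had 824.0, 933.1, 996.2 and 990.6 normalized counts in L192P and 1042, 1096, 1333 and 1056 in WT. Every L192P library lay below every WT library. Its log2 fold change was -0.27 (SE 0.10, DESeq2 adjusted p = 0.172), and the exact permutation test, two-sided, gave p = 0.0286, the smallest value that 4 against 4 can give. In the paired fit it was called lower (-0.27, adjusted p = 0.0247), and without the replicate 1 pair that call was lost (-0.25, adjusted p = 0.164). Only 2 members, Fosl2 and Nptx2, had non-overlapping groups with L192P lower (5.13%), beside 2.96% of all genes tested.

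Jun, the partner of the Fos proteins, went the other way. Its normalized counts were 1382, 1857, 1876 and 1697 in L192P and 1362, 1417, 1634 and 1345 in WT, so that the groups overlapped through the low replicate 1 library of L192P. DESeq2 gave a log2 fold change of 0.24 (SE 0.10, adjusted p = 0.338). In the paired fit Jun was called higher (adjusted p = 0.0382), and also without the replicate 1 pair (0.31 in that paired fit, adjusted p = 0.0071). An antisense gene, Junos, lies on the opposite strand of Jun (GRCm39 chr4:94937271-94940459, minus strand, 1 exon). No source used here says whether strand was used in counting. If it was not, reads of Junos cannot be told apart from those of Jun.

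Junb had 1027, 1254, 1524 and 981.0 normalized counts in L192P and 717.6, 1398, 2000 and 1234 in WT, with overlapping groups. It was called lower only without the replicate 1 pair, by -0.29 in the paired fit of 6 libraries (DESeq2 adjusted p = 0.0251). Prdx2 and Gm65321 overlap Junb on the opposite strand, so the limit given for Jun holds here too. It also holds for other members with such an overlap, among them Fosl2 and Homer1. Fosb was not called by DESeq2 in any of these 4 fits, at a log2 fold change of -0.24 (SE 0.12) over 8 libraries (adjusted p = 0.540). Jund, which is expressed constitutively, was at 0.06 (adjusted p = 0.952). The stress-induced Atf3 and the small Maf factor Maff had at most 42.4 normalized counts in any library, and their log2 fold changes of -0.43 and -0.04 had standard errors of 0.38 and 0.34.

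The Egr genes encode zinc finger factors whose promoters respond to SRF and to CREB, and all 4 had a log2 fold change below 0. Egr1, among the most used markers of recent neuronal activity, had 6825, 6219, 6227 and 5548 normalized counts in L192P and 5616, 8316, 9465 and 7416 in WT. The lowest WT library was replicate 1, whereas the other 3 WT libraries lay above every L192P library. With all 8 libraries the log2 fold change was -0.31 (SE 0.12, DESeq2 adjusted p = 0.269). Without the replicate 1 pair Egr1 was called lower, by -0.49 (DESeq2 adjusted p = 6.15e-07), and in the paired fit of the same libraries by -0.48 (adjusted p = 3.44e-14). On those libraries edgeR gave an adjusted p of 0.0121 without the block and 0.000175 with it. Leaving out WT replicate 1 alone was enough for a DESeq2 call (-0.44, adjusted p = 0.000118), and without WT replicate 3 the value was -0.20 (adjusted p = 0.772).

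Egr3 had 5077, 5510, 4361 and 4909 normalized counts in L192P and 5293, 5861, 5665 and 5630 in WT. The groups overlapped by 1 library, replicate 2 of L192P, and L192P was the lower member of every pair. The paired fit called it lower by -0.18 (SE 0.06, DESeq2 adjusted p = 0.0422), and edgeR with the block did not (adjusted p = 0.0861). Egr4 had 622.2, 718.1, 601.9 and 500.7 normalized counts in L192P and 629.2, 915.1, 903.8 and 597.0 in WT, with overlapping groups, and was called lower in the paired fit without the replicate 1 pair (-0.40, DESeq2 adjusted p = 0.0202). Egr2 lay between 86.9 and 181.0 normalized counts in L192P libraries and between 51.0 and 205.3 in WT libraries, and its log2 fold change of -0.05 came with an SE of 0.46.

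Among the other transcription factors, Npas4 is a factor that calcium entry induces almost exclusively in neurons. Its normalized counts were 281.2, 121.8, 198.3 and 92.2 in L192P and 159.4, 295.4, 198.8 and 135.8 in WT. The groups overlapped through most of their range, with L192P replicate 1 close to the highest WT library. The log2 fold change was -0.19 (SE 0.43, DESeq2 adjusted p = 0.971), and in the paired fit without the replicate 1 pair it was -0.62 (adjusted p = 0.200), so no difference was detectable.

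Nr4a1, an orphan nuclear receptor induced with Fos, had 932.4, 1474, 1955 and 1260 normalized counts in L192P and 765.8, 1787, 3102 and 1830 in WT. Replicate 1 was the lowest library of both genotypes and replicate 3 the highest. Over 8 libraries its log2 fold change was -0.41 (SE 0.43, DESeq2 adjusted p = 0.885), and in the paired fit of 6 libraries it was called lower, by -0.50 (SE 0.09, adjusted p = 3.10e-06). On those 6 libraries edgeR with the block gave an adjusted p of 0.00221. Leaving out single libraries moved the 8-library value between -0.67 (without WT replicate 1) and -0.06 (without WT replicate 3). The related Nr4a3 was lower in all 4 pairs and not called, at -0.26 (SE 0.16, adjusted p = 0.680).

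Klf4 and Klf2, zinc finger factors that also act in blood vessel endothelium, had the largest positive log2 fold changes of the members. Klf4 had 64.5, 95.6, 89.9 and 83.8 normalized counts in L192P and 48.3, 54.8, 54.3 and 50.3 in WT. All 4 L192P libraries lay above all WT libraries, the only member of which this was true (2.56%), beside 3.01% of all genes tested. Its log2 fold change was 0.68 (SE 0.21, DESeq2 adjusted p = 0.0728, exact permutation p = 0.0286), so it was not called, and the paired DESeq2 fit of 8 libraries gave it no adjusted p. Without L192P replicate 1 it was called higher (0.79, DESeq2 adjusted p = 0.0439), and without the replicate 1 pair it was at 0.75 (adjusted p = 0.0827). Klf2 was at 0.54 (SE 0.24, adjusted p = 0.389). The 10 endothelial markers had a median log2 fold change of 0.36 and summed normalized counts of 779 to 2118 in L192P and 999 to 1847 in WT, so that the groups overlapped, and the part of endothelial RNA in the Klf2 and Klf4 values was not tested. Klf6 and Klf10 were at -0.04 and -0.02.

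**Figure D2:**
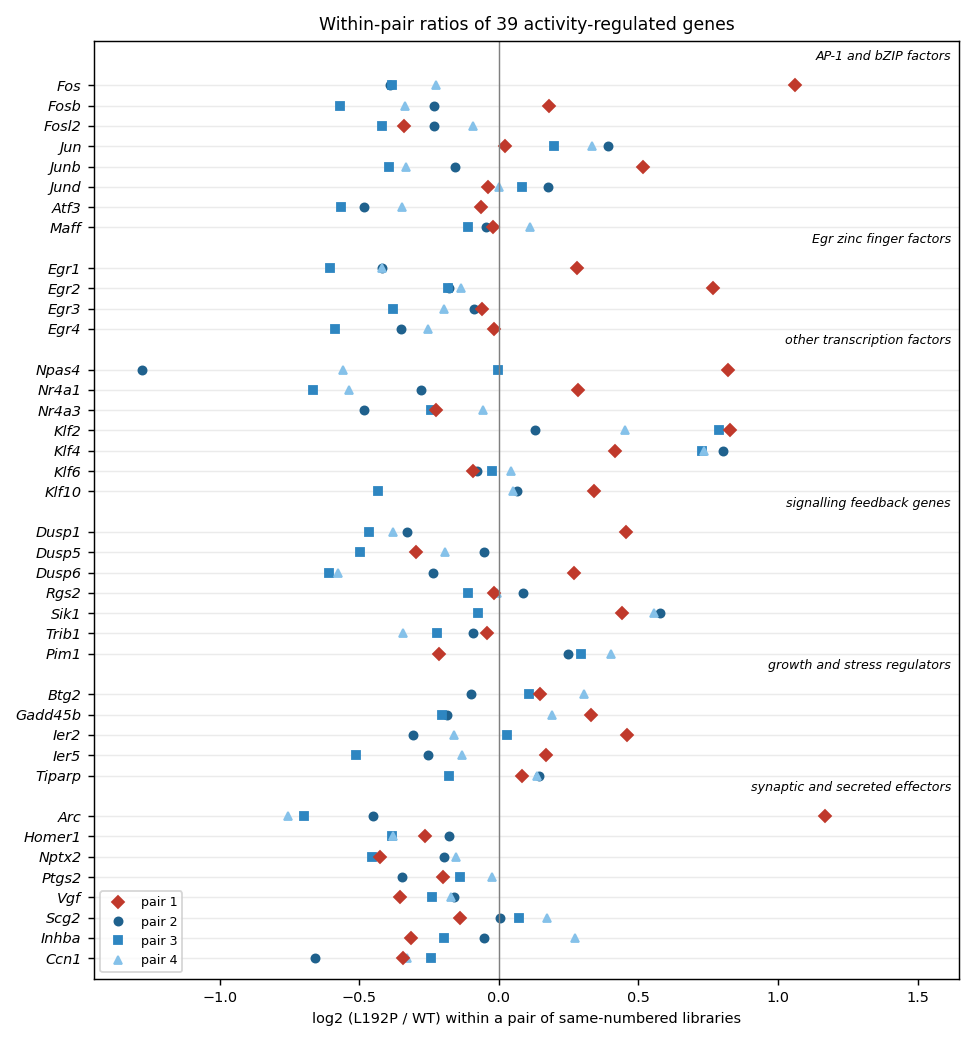
Log2 ratio of normalized counts (L192P over WT) within each pair of same-numbered libraries, for the 39 members ordered by role (pair 1 as red diamonds, pairs 2 to 4 in blue). In pairs 2, 3 and 4, 29, 31 and 26 members lie below 0, and in pair 1 19 do. Red diamonds to the right of 0 with blue points to the left mark the 11 members that were higher in pair 1 and lower in the others.

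The signalling feedback genes limit the pathways that induced them. Dusp1 and Dusp6 encode phosphatases of the MAP kinases, and both were called lower without the replicate 1 pair and not with it. Dusp6 had 1171, 1434, 1311 and 1229 normalized counts in L192P and 970.7, 1688, 1997 and 1833 in WT. WT replicate 1 was the lowest of the 8 libraries, and the other 3 WT libraries lay above every L192P library. Its log2 fold change went from -0.33 (SE 0.23) over 8 libraries (DESeq2 adjusted p = 0.744) to -0.47 (SE 0.09) over 6 (adjusted p = 1.31e-05).

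Dusp1 had 542.8, 699.9, 801.3 and 662.4 normalized counts in L192P and 396.1, 879.5, 1107 and 861.6 in WT, the same order of libraries as in Dusp6 at the lower end. It was at -0.26 over 8 libraries (DESeq2 adjusted p = 0.917), at -0.08 without WT replicate 3, and at -0.40 over 6 (adjusted p = 0.0201). Ergic1 overlaps Dusp1 on the opposite strand, and its reads cannot be told apart from those of Dusp1 if the counting did not use strand. Dusp5 and Trib1, which encode a further phosphatase and a pseudokinase, were lower in all 4 pairs without being called, at -0.27 and -0.18. Sik1, a kinase that keeps CREB coactivators out of the nucleus, was at 0.35 (SE 0.18, adjusted p = 0.529). Rgs2, which shortens G protein signals, had the smallest spread of the members and was at -0.01 (SE 0.07.) The kinase gene Pim1 was lower in pair 1 and higher in the other 3 pairs, at 0.19 overall (adjusted p = 0.866).

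Of the 5 growth and stress regulators, Ier5 was called and Btg2, Gadd45b, Ier2 and Tiparp were not. Ier5, a regulator of the heat shock response, had 1894, 2199, 1777 and 1935 normalized counts in L192P and 1686, 2623, 2534 and 2118 in WT. The groups overlapped, with WT replicate 1 the lowest library. Without the replicate 1 pair it was called lower, by -0.30 (SE 0.09, DESeq2 adjusted p = 0.0393), against -0.20 with all 8 libraries (adjusted p = 0.659). The log2 fold changes of the other 4 ran from -0.04 for Ier2 to 0.11 for Btg2, an antiproliferative gene, with adjusted p of 0.952 or more.

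The effectors act at synapses or are secreted, and 7 of 8 had a log2 fold change below 0. Nptx2 (ENSMUSG00000059991, GRCm39 chr5:144482692-144500381, plus strand, 5 exons) encodes a secreted pentraxin that gathers AMPA receptors at excitatory synapses on interneurons. Its normalized counts were 1226, 1430, 1170 and 1407 in L192P and 1645, 1638, 1603 and 1566 in WT, or 1308 ± 130 against 1613 ± 35.9 (SD, n = 4 each). Every L192P library lay below every WT library, and L192P was lower in all 4 pairs. DESeq2 gave a log2 fold change of -0.30 (SE 0.08, adjusted p = 0.0145, exact permutation p = 0.0286). The call was lost with edgeR (adjusted p = 0.111), without the replicate 1 pair (DESeq2 adjusted p = 0.0595) and when single libraries were left out. DESeq2 gave an adjusted p above the threshold without L192P replicate 1 (0.0603) or 3 (0.123) and without WT replicate 2 (0.0873), 3 (0.0866) or 4 (0.0593), with log2 fold changes from -0.25 to -0.35 when any 1 library was left out.

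Homer1 (ENSMUSG00000007617, GRCm39 chr13:93436143-93541637, plus strand, 9 exons in the canonical transcript) encodes a scaffold that ties metabotropic glutamate receptors to other postsynaptic proteins. Activity induces a short form, which counts per gene cannot separate from the long forms. Its normalized counts were 6920, 6171, 4763 and 5798 in L192P and 8310, 6987, 6217 and 7531 in WT. The groups overlapped, but pairs deviated together, and L192P was lower in each pair, by log2 ratios of -0.26, -0.18, -0.38 and -0.38. With genotype as the only term the log2 fold change was -0.30 (SE 0.11, DESeq2 adjusted p = 0.204), and in the paired fit it was -0.30 (SE 0.05, adjusted p = 5.88e-07). Leaving out the replicate 1 pair kept the paired call (-0.31, adjusted p = 2.55e-05), and edgeR with the block called it as well (adjusted p = 0.00343).

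Vgf (ENSMUSG00000037428, GRCm39 chr5:137055246-137062205, plus strand) encodes a precursor of neurosecretory peptides and holds the CRE shown above. Its normalized counts were 5251, 6954, 6061 and 6477 in L192P and 6711, 7773, 7151 and 7300 in WT. The groups overlapped through L192P replicate 2 and WT replicate 1, and within pairs L192P was always lower. The log2 fold change was -0.23 (SE 0.08, DESeq2 adjusted p = 0.219), and the paired fit called it lower by the same amount (adjusted p = 0.000222). It was also called lower in the paired fit without the replicate 1 pair (-0.19, adjusted p = 0.0102).

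Arc (ENSMUSG00000022602, GRCm39 chr15:74540932-74544419, minus strand, 3 exons) encodes a capsid-like protein that promotes the removal of AMPA receptors from synapses. Its normalized counts were 1467, 2608, 3332 and 2023 in L192P and 652.0, 3565, 5401 and 3415 in WT, so that the WT group alone spanned the whole range. Replicate 1 was the lowest library of both genotypes, and the WT library of that pair was below the L192P one. Over 8 libraries the log2 fold change was -0.47 (SE 0.61, DESeq2 adjusted p = 0.926). Within pairs L192P was 2.25-fold higher in pair 1, and the log2 ratios in pairs 2 to 4 were -0.45, -0.70 and -0.76. The paired fit of those 3 pairs called Arc lower, by -0.63 (SE 0.07, adjusted p = 1.49e-15), and edgeR with the block gave an adjusted p of 0.000128. The paired value depended on the pair left out, at -0.12, -0.03 and -0.01 without pair 2, 3 or 4, where Arc was not called. Leaving out single libraries moved the value without the block between -0.81 (without WT replicate 1) and -0.11 (without WT replicate 3). Without the block the 6 libraries of replicates 2 to 4 did not reach the threshold (-0.64, DESeq2 adjusted p = 0.307).

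Of the remaining effectors, Ptgs2, the inducible cyclooxygenase of neurons, and Ccn1, a matrix protein, were lower in all 4 pairs and not called, at -0.18 and -0.38 with standard errors of 0.12 and 0.28. Scg2, a granin of dense-core vesicles, and Inhba, a subunit of activin, were at 0.03 and -0.05 (DESeq2 adjusted p of 0.974 and 0.981).

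**Figure D3:**
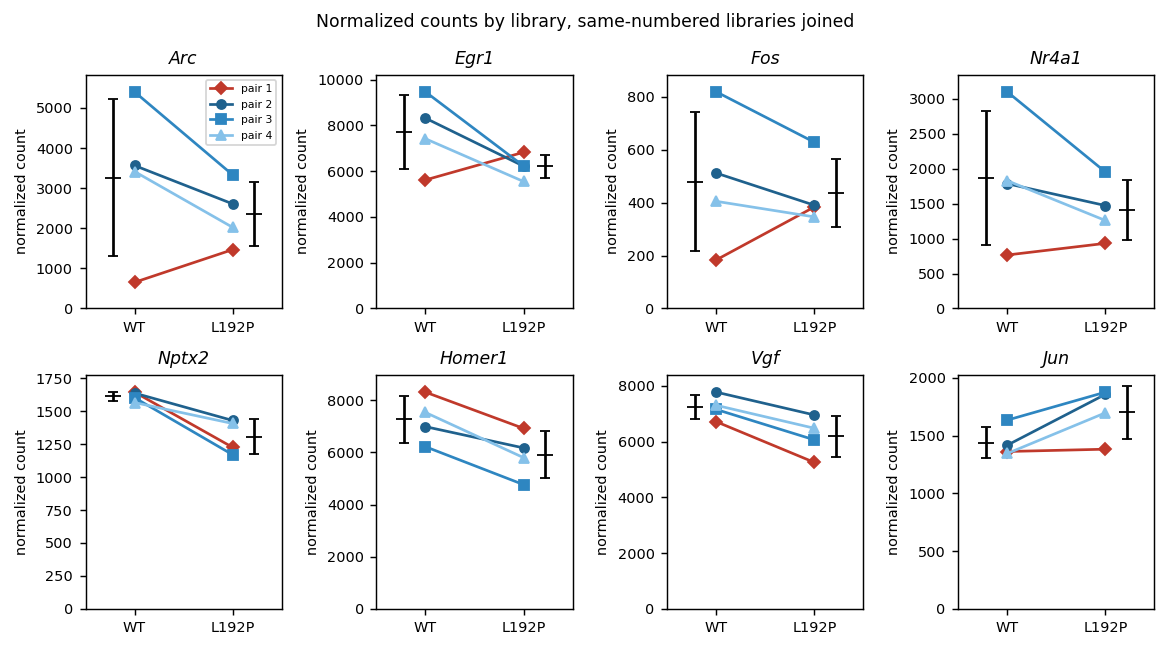
Normalized counts of 8 members in each library, with lines joining same-numbered libraries (pair 1 in red, pairs 2 to 4 in blue) and bars giving the mean ± SD of the 4 libraries of a genotype. For Nptx2, Homer1 and Vgf the L192P end of all 4 lines is the lower one, for Jun it is the higher one, and for Arc, Egr1, Fos and Nr4a1 it is higher in the red line and lower in the blue lines.

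The direction within pairs split the members into sets, by sign alone and whatever the size of the ratio. Some log2 ratios lay close to 0, so that a small shift in counts would move a member to another set. Examples are Egr4 (-0.02), Trib1 (-0.04), Egr3 (-0.06) and Jun (0.02) in pair 1 and Npas4 (-0.0034) in pair 3. Lower values in L192P were found in all 4 pairs for 12 of 39 members (30.8%), beside 11.5% of 18524 genes tested: Fosl2, Atf3, Egr3, Egr4, Nr4a3, Dusp5, Trib1, Homer1, Nptx2, Ptgs2, Vgf and Ccn1. In 3 members, Jun, Klf2 and Klf4, L192P was higher in all 4 pairs (7.69%), beside 12.4% of genes tested. A further 11 members (28.2%), beside 7.95% of genes tested, were higher in pair 1 and lower in pairs 2 to 4: Fos, Fosb, Junb, Egr1, Egr2, Npas4, Nr4a1, Dusp1, Dusp6, Ier5 and Arc. The promoters with a CArG box fell on both sides, with Fos, Fosb and Egr2 in the last set and Egr3 and Dusp5 among those lower in every pair. Over all members the median log2 ratio was 0.02 in pair 1 and -0.18, -0.24 and -0.14 in pairs 2, 3 and 4.

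The gap between pair 1 and the other pairs was also fitted gene by gene, in a comparison that this pattern prompted. Its pair 1 arm holds 1 library of each genotype, whose spread is taken from the other pairs, so its values describe the pattern and are no independent test of it. In Arc the log2 fold change was 1.80 higher in pair 1 than in the other pairs, in Fos 1.40 and in Egr1 0.76, in the DESeq2 fit with the replicate block. That fit called these 3 members, beside 0.0214% of 32676 genes, and without the block it called Egr1 alone (0.77), beside 0.0153%. By edgeR 0 members were called, 10 had an unadjusted p under 0.05, and 0.00592% of 16887 genes were called. The sex-linked pattern of the replicate 1 libraries and anything else particular to that pair cannot be told apart.

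The members were high or low together from library to library. Relative to each gene's mean over the 8 libraries, the median log2 level of the members was -0.28 in WT replicate 1 and 0.38 in WT replicate 3, and it was -0.17, 0.02, 0.10 and -0.10 in L192P replicates 1 to 4. WT replicate 3 was the highest library for 19 of 39 members, against 8.66% of all genes tested, and WT replicate 1 the lowest for 15, against 13.6% of all genes. Within a genotype the log2 SD of a member had a median of 0.28, against 0.12 over 13416 tested genes that averaged 50 or more normalized counts, and the order ran from Rgs2 at 0.09 to Fos at 0.69 and Arc at 1.02. After pairing, the median SD was 0.15 for the members and 0.09 for the other set. The members are also compact genes, with a median span of 6960 bases and 4 exons, against 21955 bases and 7 exons over the tested genes found in the annotation.

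**Figure D4:**
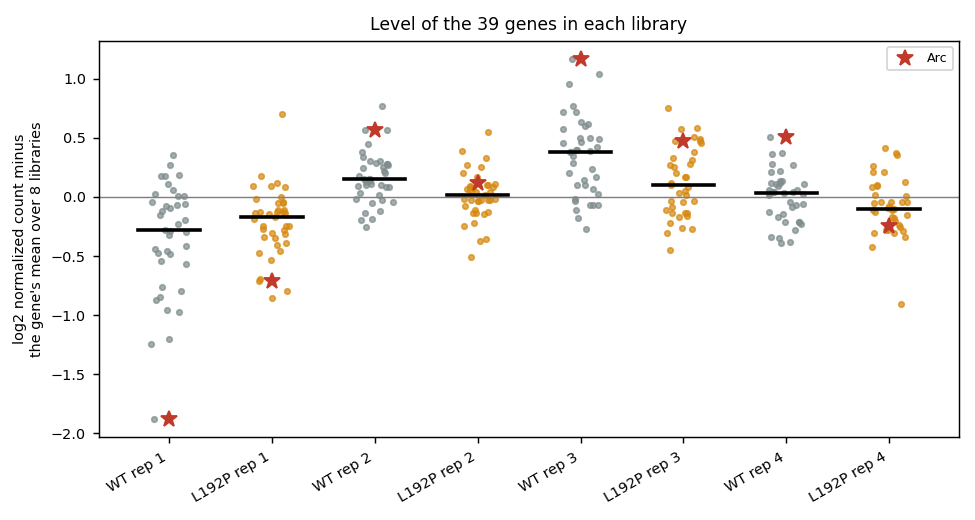
Log2 normalized count of each of the 39 members in each library minus the gene's mean over the 8 libraries, with WT libraries in gray, L192P libraries in orange, black bars at the medians and Arc as a red star. WT replicates 1 and 3 have the lowest and the highest medians, -0.28 and 0.38, and Arc lies at both the bottom and the top of the panel.

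Other genes of the same response were described from 2 further lists. Of 32 other activity-regulated genes, 31 were given an adjusted p, 24 had a log2 fold change below 0 and the median was -0.11. Rgs4, which dampens G protein signals at synapses, had 14590, 14070, 11170 and 16150 normalized counts in L192P and 17530, 20400, 19020 and 22190 in WT, with no overlap, and was called lower by -0.50 (SE 0.10, DESeq2 adjusted p = 0.000483). Spry2, an inhibitor of growth factor signals, was also called lower (-0.28, adjusted p = 0.0451), and Pcdh8, an activity-induced protocadherin, was called higher (0.36, adjusted p = 0.0119), so that 3 of 32 were called beside 1.36% of all genes tested. By edgeR without the block none of the 3 was called (adjusted p of 0.063, 0.162 and 0.101 for Rgs4, Spry2 and Pcdh8). In the paired fit without the replicate 1 pair these 3 were called again, with Nptx1, Bhlhe40, Plk2 and Rasgrp1 called lower in addition. Bdnf, the neurotrophin that activity induces, was at -0.21 (SE 0.10, adjusted p = 0.465).

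Of 40 genes that relay calcium, cAMP and MAP kinase signals to the nucleus, 0 were called by DESeq2 with genotype as the only term, where 2 had an unadjusted p under 0.05, and the median log2 fold change was -0.02, beside 1.36% of all genes called. The paired fit called Camkk2, a kinase activated by calmodulin, and Ppp3r1, the regulatory subunit of calcineurin, lower by -0.18 and -0.15 (adjusted p of 0.0191 and 0.0108), which is 2 of 40 beside 4.25% of all genes. Without the replicate 1 pair the paired fit also called Camk2a lower (-0.19, adjusted p = 0.0159), which is 3 of 40 beside 4.13% of all genes, so that these shares were near the background. The genes that encode CREB, SRF and the MAP kinases were not called in these fits.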

How the data were processed

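The authors deposited raw counts per gene for 8 mRNA libraries of mouse cortex (4 L192P, 4 WT). Per the submitters' processing notes and the methods, reads were aligned with STAR 2.7.9a to GRCm39 and counted at gene loci with featureCounts 1.5.1. The methods give a later letter for the STAR version, and neither the strand setting nor the annotation release is given in the sources used here. Replicates were not pooled, and a deposited table of normalized values was not used here. Groups and replicate numbers came from the labels.

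The deposited counts were fitted with DESeq2 1.42.0 in R 4.3.3, with genotype as the only term, as the study's methods name DESeq2 and an adjusted p under 0.05 with no limit on the fold change. All genes were fitted and p-values were adjusted by Benjamini-Hochberg over all genes kept by independent filtering. Normalized counts are counts divided by DESeq2 size factors, and log2 fold changes were not shrunken. Rows without a gene symbol held at most 0.0112% of a library's counts and stayed in the fits. A gene with few counts has a coarse fold change, and intervals cover counting error and the spread between libraries only. Pairwise chi-square statistics of libraries of 1 genotype were between 5.98 and 25.0 per degree of freedom, so none was a near-copy of another. Each library was counted as a replicate, although these statistics cannot show that the libraries came from separate animals.

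Over 13422 genes that averaged 50 or more normalized counts, deviations from the group means correlated at 0.628, 0.381, 0.233 and 0.327 between libraries with the same number, and at -0.375 to 0.144 between the 12 other pairs. Among replicates 2 to 4 the contrast was smaller, at 0.233 to 0.381 with the same number and -0.02 to 0.144 otherwise. All values below these involved a replicate 1 library. The labels do not say what a number stands for. The numbers were treated as pairs, and fits with the number as a block are given beside the results they change.

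Alternatives were edgeR 4.0.16 (quasi-likelihood test, with and without the block), TMM and total-count factors, a minimum of 10 counts in 4 or more libraries, switching off independent filtering or the Cook filter, leaving out each library, and leaving out both replicate 1 libraries. The difference between pair 1 and the others, edgeR without replicate 1, and leaving out the other pairs were added after seeing the data. The members and the lists were chosen with earlier results of these data known, so lists are described and not tested. Values in every library were to be given for members called by DESeq2 with or without the block, the 3 with the highest mean count, Fos, Egr1, Arc and Npas4. Those of Junb, Egr4, Nr4a1, Klf4, Dusp1, Dusp6 and Ier5 were added after their values were seen. Exact permutation tests used normalized counts. Positions and overlaps came from GENCODE M39 on GRCm39, which held 98.8% of the identifiers. Promoters were searched with Python 3.11.15, and the programs were tested on simulated data of 8 libraries. The planted changes were larger than those of any member called above, and no effect of the replicate number was simulated. That test therefore does not cover differences of the size reported here or the paired fits of 6 libraries. One marker gene is not reported here.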

Additional observations from a re-analysis of the deposited data

Results flagged for a closer look

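In 78 groups of 4 libraries (39 members in 2 genotypes), the highest or lowest library was compared with its nearest neighbour as a share of the group's range. In 4 groups this share passed Dixon's 95% critical value, and chance flags about 1 in 20 groups, or 3.9 of 78. Fos had a high library in L192P, replicate 3, at 628.4 normalized counts against 346.2 to 390.3 in the others (0.844). Atf3 had a low one in L192P, replicate 1, at 13.1 (0.910). In WT replicate 1, Klf2 was at 51.0 against 93.7 to 97.7 (0.913). Gadd45b, a stress-induced gene, was at 417.6 in L192P replicate 1 against 358.2 to 359.7 (0.975). Of these 4 flags, 3 came from the replicate 1 pair, 2 from the L192P library and 1 from the WT library, in a total close to that given for chance.

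A comparison of pair 1 with the other pairs, prompted by the pattern it describes, stood out for 3 members. For Arc the log2 fold change was 1.80 higher in pair 1 (DESeq2 with the replicate block), and for Fos it was 1.40 higher. For Egr1 it was 0.77 higher without the block and 0.76 higher with it. The edgeR test of the same difference called 0 members, and 10 had an unadjusted p under 0.05. Pair 1 is a single pair whose spread is taken from the others, so these values are no independent test, and its sex-linked pattern cannot be told apart from anything else particular to it.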

How the results depend on the processing

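Counts of members called depended on the fit, and so did the share of all genes called, which is given with the results above. Against 1 with genotype as the only term, 6 were called with the replicate block, 0 by edgeR (10 with an unadjusted p under 0.05), 4 by edgeR with the block, 6 without the replicate 1 pair, 12 without it in the paired fit, and, in fits added after seeing the data, 2 by edgeR and 16 by edgeR with the block on those 6 libraries. Leaving out 1 library gave 0 to 5, where 112 to 496 of all genes were called. The number was 0 without L192P replicate 3 or WT replicate 2, 3 or 4 (112 to 127 of all genes). It was 3 without L192P replicate 1 (275 of all genes) and 5 without WT replicate 1 (496). The 6 paired calls became 12, 3 and 2 without pair 1, 2 or 3. Of all genes tested, 572 of 13858, 147 of 13384 and 148 of 15790 were called there, so calls fell over all genes as well without pair 2 or 3. Calls in the other activity-regulated and relay genes numbered 3, and 5 with the block, 0 by edgeR, 7 without the replicate 1 pair, 10 there with the block and 8 by edgeR with the block, and 1 to 4 without 1 library. The calls over all genes in these fits are those given with the members. The members' median of -0.18 became -0.04 (-0.0425) in the paired fit without pair 3. Of 391 values for the 17 members given in every library, 381 kept their direction, and 14 members never reversed. These fits share most of their libraries, so the values are not independent of one another. Some of the 17 were added after their values were seen, and the other members were not followed. Fos reversed to 0.0029 in the paired fit, to 0.14 (0.1400 and 0.1392) without pair 2 or 3, to 0.0832 without pair 4 and, leaving out single libraries, ranged from -0.4047 to 0.2515 (without WT replicate 3). Npas4 reversed to 0.11 without pair 2, to 0.0208 without L192P replicate 4 and to 0.0751 without WT replicate 2 (range -0.5271 to 0.0751), and Junb to 0.0087 without pair 3 and 0.0991 without WT replicate 3 (range -0.3683 to 0.0991). TMM and total-count factors turned no direction. Where a cause is not given by the fewer libraries fitted, it was not tested. Without pair 4, DESeq2 gave an adjusted p to 19 members only.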
